A study of Bos taurus with 8 samples.

Results

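BDH1, BDH2, ACAT1 and OXCT1 encode enzymes that make, interconvert or use ketone bodies, and their transcript levels were examined in the livers of fetal Japanese Black cattle whose dams were fed a low or a high diet. The members were taken by accession: a probe belonged here when the RefSeq accession that the array design gives for it belongs to 1 of these 4 genes. This gave 7 probes for 4 genes, among 26743 probes of 12603 genes whose accession could be matched (43637 probes in the normalization). The 4 genes were chosen from results of the same low against high comparison, so their differences between the groups are given below as a description, without a test.

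The low-nutrition (LN) dams received 60% and the high-nutrition (HN) dams 120% of the estimated nutritional requirement during gestation, and the fetuses were delivered by cesarean section at day 260 ± 8.3 of gestation (8.5 months in the sample labels). There were 4 LN fetuses, labelled L5, L6, L8 and L9, and 4 HN fetuses, labelled L1, L2, L3 and L10, each on 1 single-colour array. All dams had been inseminated with male-sorted semen of 1 sire, and the arrayed fetuses were the lightest of the LN group and the heaviest of the HN group, so diet and body weight cannot be told apart here. There was no group on the standard requirement. The series record speaks of RNA pooled by group, whereas the samples are labelled by fetus and the 8 arrays differed from each other, so the values were read as 1 fetus per array. The LN group was hybridised to 1 slide and the HN group to the second, so slide and diet cannot be told apart either.

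Ketone bodies are made in liver mitochondria from the acetyl-CoA that fatty acid oxidation yields, and they serve other organs as fuel when glucose is short. Acetoacetate and beta-hydroxybutyrate are the main forms, and a dehydrogenase converts one into the other. An organ that burns ketone bodies first returns acetoacetate to its CoA ester with succinyl-CoA as the donor, a step for which the adult liver has little enzyme. In ruminants the rumen wall also makes beta-hydroxybutyrate from butyrate, and ketosis is a common disorder of underfed cows.

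In limma, 0 of 33440 detected probes passed a Benjamini-Hochberg adjusted p of 0.05 (0% called, lowest adjusted p = 0.634), and 2113 probes had an unadjusted p under that value. Of 10861 genes with a detected probe, 5603 were higher and 5258 (48.4%) lower in LN, with a median difference of 0.00746 on the log2 scale, a balance that quantile normalization itself favours. A level here is the quantile-normalized log2 signal of a probe, and detection required a call well above background on 4 or more of the 8 arrays. Well above background were 32635 to 33371 spots on the LN arrays and 33254 to 34369 on the HN arrays, with 0 saturated. Of 8 hepatocyte markers, 7 had a matched probe and all 7 were detected, at a mean log2 signal of 17.94 to 18.02 in LN and 17.94 to 18.03 in HN, so the tissue carried the transcripts of liver. All 7 member probes were well above background on all 8 arrays.

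None of the 4 genes separated LN from HN. Their differences ran from -0.17 for BDH2 to 0.10 for OXCT1, and each was smaller than the standard deviation (SD) within the groups. No member differed by more than 0.322 on the log2 scale (the fold threshold of the study's gene lists), against 7.82% of all genes above that size on the higher side (849 genes) and 8.63% on the lower side (937 genes). No member had all LN values on 1 side of all HN values, against 2.59% of all genes with every LN fetus higher (281 genes) and 1.56% with every LN fetus lower (169 genes). With 4 members and background shares this small, a count of 0 says little about them. With each array scaled to its 75th percentile instead, the genes above that size split into 612 higher and 1433 lower, and the members stayed below it.

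**Figure D1:**
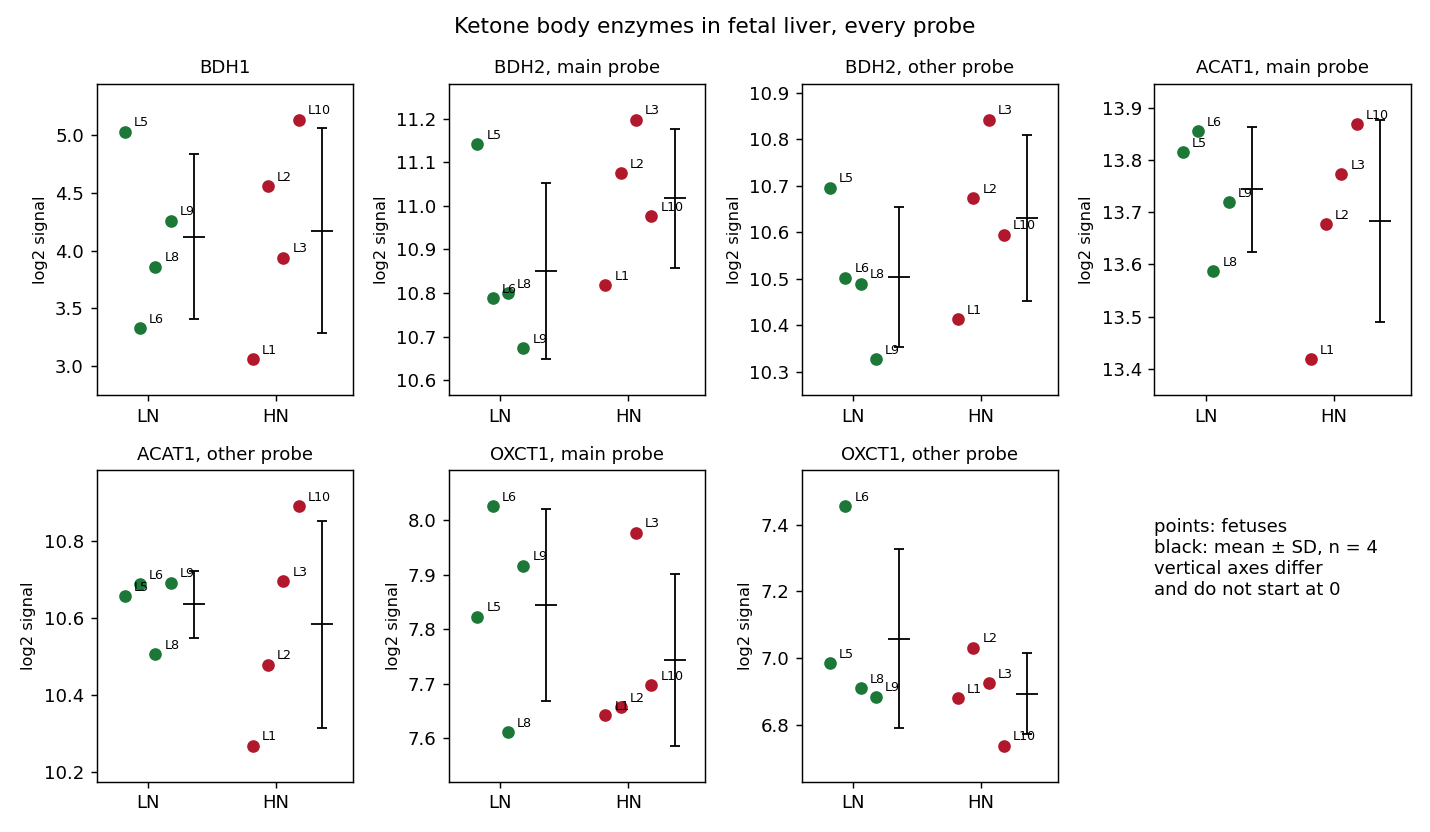
Log2 signal (vertical axis, quantile normalized) of the 7 probes of BDH1, BDH2, ACAT1 and OXCT1 in each LN and HN fetus, with the mean and SD of each group beside the points. The ranges of LN and HN overlap in all 7 panels, and BDH1 spans about 2 log2 units where BDH2 and ACAT1 span under 1.

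ACAT1 encodes the mitochondrial acetoacetyl-CoA thiolase, which joins acetyl-CoA units at the start of ketone body synthesis, splits acetoacetyl-CoA when ketone bodies are burnt, and takes part in isoleucine breakdown. Its main probe (A_73_P049386, the brighter on average and the one used to represent the gene) read 13.82 in L5, 13.85 in L6, 13.59 in L8 and 13.72 in L9 of LN. The HN fetuses read 13.42 in L1, 13.68 in L2, 13.77 in L3 and 13.87 in L10. The highest and the lowest value were both HN, and all 4 LN values lay between them. The means were 13.74 ± 0.12 in LN and 13.68 ± 0.19 in HN (SD, n = 4 each), a difference of 0.06 with a 95% interval of -0.24 to 0.36, which spans ratios of 0.845 to 1.29. The other probe (A_73_P299446) read 10.66, 10.69, 10.51 and 10.69 in L5, L6, L8 and L9, and 10.27, 10.48, 10.70 and 10.89 in L1, L2, L3 and L10. It gave a difference of 0.05 (-0.29 to 0.39), and after subtraction of the group means the probes had a Pearson r of 0.918 over the 8 fetuses. The sign of the ACAT1 difference rested on 1 fetus, since without HN fetus L1 it was -0.03.

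BDH1 encodes the mitochondrial beta-hydroxybutyrate dehydrogenase, which sets the ratio of beta-hydroxybutyrate to acetoacetate and needs phosphatidylcholine for its activity. Its 1 probe (A_73_P050306) read 5.03 in L5, 3.33 in L6, 3.86 in L8 and 4.26 in L9 of LN. In HN it read 3.06 in L1, 4.56 in L2, 3.94 in L3 and 5.14 in L10. Within each diet the fetuses thus differed by more than 1 log2 unit, and the groups overlapped over nearly their whole range. The means were 4.12 ± 0.72 in LN and 4.17 ± 0.89 in HN (SD, n = 4 each), and the difference of -0.05 had a 95% interval of -1.15 to 1.04. That interval spans ratios of 0.451 to 2.06, so the arrays set no narrow bound on a change of BDH1 in either direction. The signal was low, 1.26 to 5.18 times the lowest signal called well above background on the same array. Its within-group SD of 0.81 was larger than that of 96.3% of genes. Leaving out 1 fetus at a time moved the difference from -0.43 without HN fetus L1 to 0.27 without HN fetus L10.

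BDH2 encodes a cytosolic dehydrogenase of the same activity, which has also been studied for a part in iron handling. Its main probe (A_73_114631) read 11.14 in L5, 10.79 in L6, 10.80 in L8 and 10.67 in L9 of LN. The HN values were 10.82 in L1, 11.07 in L2, 11.20 in L3 and 10.98 in L10. LN fetus L5 stood with the higher HN fetuses, while L6, L8 and L9 lay just under the lowest HN fetus. The means were 10.85 ± 0.20 in LN and 11.02 ± 0.16 in HN (SD, n = 4 each), and the difference of -0.17 had a 95% interval of -0.49 to 0.16 (ratios of 0.712 to 1.11). Without L5 the difference was -0.26 and the groups no longer overlapped on this probe, as was then so for 2.53% of all genes on the lower side (275 genes). The other probe (A_73_P501968) read 10.69, 10.50, 10.49 and 10.33 in L5, L6, L8 and L9, and 10.41, 10.67, 10.84 and 10.59 in L1, L2, L3 and L10. Its difference was -0.13 (-0.43 to 0.18), its groups overlapped with and without L5, and within the groups it had an r of 0.959 with the main probe. Leaving out each fetus in turn gave differences of -0.26 to -0.11, all lower in LN.

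OXCT1 encodes succinyl-CoA:3-ketoacid CoA transferase, the mitochondrial enzyme that returns acetoacetate to acetoacetyl-CoA so that it can be oxidized. Its main probe (A_73_P167292) read 7.82 in L5, 8.03 in L6, 7.61 in L8 and 7.92 in L9 of LN. In HN it read 7.64 in L1, 7.66 in L2, 7.98 in L3 and 7.70 in L10. The highest and the lowest fetus were both LN, and HN fetus L3 stood away from the other HN fetuses. The means were 7.84 ± 0.18 in LN and 7.74 ± 0.16 in HN (SD, n = 4 each), a difference of 0.10 with a 95% interval of -0.21 to 0.41 (ratios of 0.866 to 1.33). The other probe (A_73_P042801) read 6.98, 7.45, 6.91 and 6.88 in L5, L6, L8 and L9, and 6.88, 7.03, 6.93 and 6.74 in L1, L2, L3 and L10. Here L6 stood above every other fetus, and the difference was 0.17 (-0.19 to 0.52). The OXCT1 probes shared less than those of BDH2 and ACAT1, with a within-group r of 0.479, and L3 was the highest HN fetus on the main probe but not on the other. Leaving out each fetus in turn gave differences on the main probe of 0.04 to 0.18, all higher in LN.

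**Figure D2:**
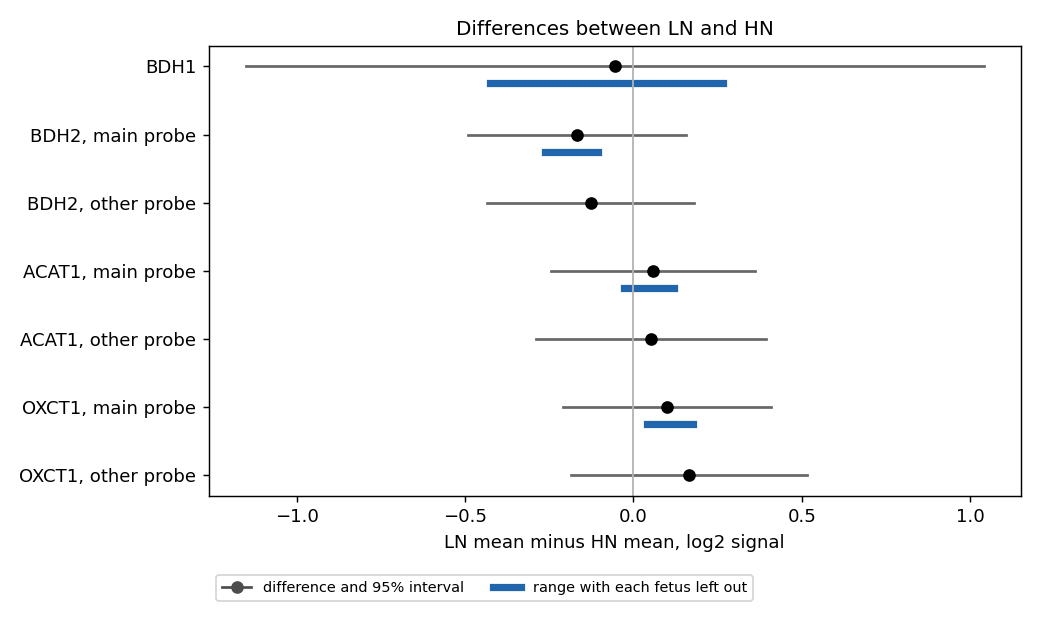
LN mean minus HN mean of the log2 signal (horizontal axis) for each probe, with its 95% interval from the limma fit as a thin line, and below it for the main probes, as a thick line, the range of the difference with each fetus left out. The interval of BDH1, -1.15 to 1.04, is the widest, and the intervals are a description, since the members were chosen from this comparison.

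The enzymes on the synthesis side and the enzyme of use therefore gave no common direction: ACAT1 and OXCT1 were higher and BDH1 and BDH2 lower in LN, all by less than 0.322 on the log2 scale. Among the 5258 genes lower in LN, BDH2 ranked 2245th and BDH1 4135th by size. Among the 5603 higher genes, OXCT1 ranked 3455th and ACAT1 4300th. The within-group SDs of BDH2, ACAT1 and OXCT1 were 0.18, 0.16 and 0.17, smaller than those of most genes (34.1%, 26.4% and 28.8% of genes had a smaller one).

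Differences between fetuses of 1 diet do not enter the choice of the members, and they were followed next, with each value taken as its deviation from the mean of its group. HN fetus L1 had the lowest HN value of all 4 enzymes on the main probes: 1.11 below the HN mean for BDH1, 0.20 for BDH2, 0.27 for ACAT1 and 0.10 for OXCT1. LN fetus L5 was the highest LN fetus for BDH1 and BDH2, and L8 the lowest for ACAT1 and OXCT1 and below the LN mean for all 4. Over the 8 fetuses the r between members was 0.595 for BDH1 and ACAT1, 0.579 for ACAT1 and OXCT1, 0.525 for BDH1 and BDH2 and 0.495 for BDH2 and ACAT1. BDH2 and OXCT1 had an r of 0.223, and BDH1 and OXCT1 of -0.138. These 6 values describe the same 8 arrays, which share 1 normalization, and each rested on few fetuses. With 1 fetus left out, BDH1 and ACAT1 ran from 0.187 (without HN fetus L1) to 0.888 (without LN fetus L6), ACAT1 and OXCT1 from 0.412 (L8) to 0.778 (L10), BDH1 and BDH2 from 0.224 (L5) to 0.71 (L10), and BDH2 and ACAT1 from 0.179 (L1) to 0.659 (L10). The pairs BDH2 and OXCT1, from -0.128 (L3) to 0.406 (L5), and BDH1 and OXCT1, from -0.445 (L1) to 0.129 (L6), changed sign. With the probes of each gene averaged, ACAT1 and OXCT1 had an r of 0.302 and BDH1 and OXCT1 of -0.363. With scaling to the 75th percentile, BDH2 and ACAT1 had 0.268, ACAT1 and OXCT1 0.376, BDH2 and OXCT1 0.109 and BDH1 and OXCT1 -0.0516, and with normexp BDH2 and OXCT1 had 0.0562 and BDH1 and OXCT1 -0.0897.

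**Figure D3:**
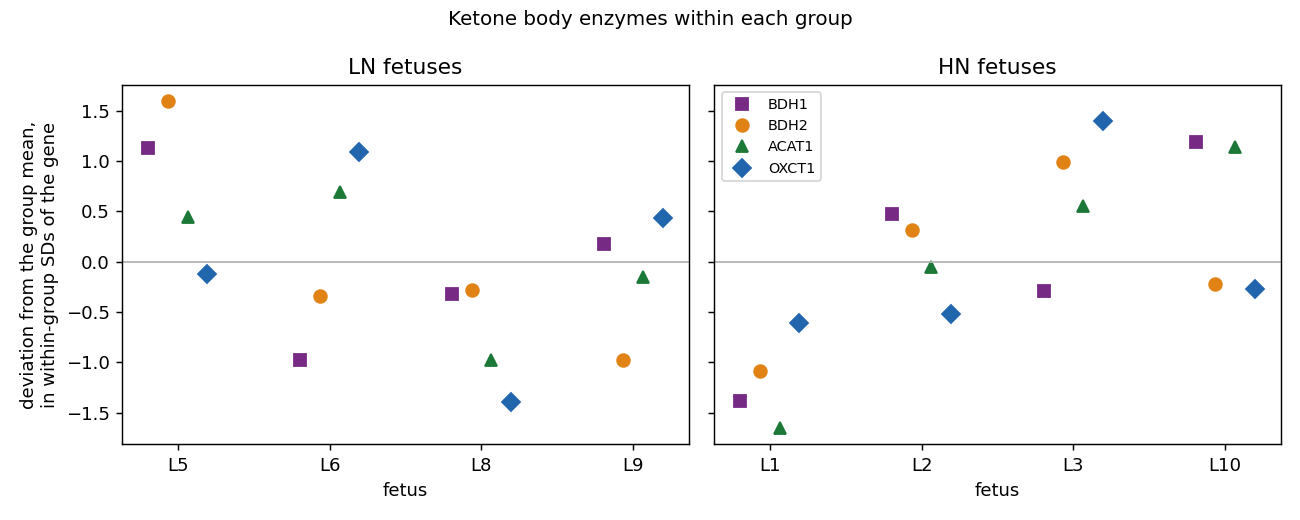
Deviation of each main probe from the mean of its diet group, in within-group SDs of that gene (vertical axis), for the LN fetuses on the left and the HN fetuses on the right. All 4 symbols of HN fetus L1 lie below 0, as do those of LN fetus L8, whereas those of the other fetuses lie on both sides of it.

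The genes most like each member over the same deviations were read from all 10861 genes. For BDH1 they were PEX5 (r = 0.978), the import receptor for peroxisomal enzymes, ELOVL2 (0.972), which elongates polyunsaturated fatty acids, and WIPI1 (0.963), a protein of autophagosome formation. For BDH2 they were FXYD3 (0.95), a regulator of the sodium pump, HBM (0.939), a globin of the alpha family, and KCTD7 (0.939). For ACAT1 they were the ribosomal protein gene RPL37A (0.975), the copper transporter ATP7A (0.957) and the trypsin inhibitor SPINK1 (0.953). For OXCT1 they were C1QL2 (0.987), HGF (0.979), the hepatocyte growth factor, and UTP14A (0.978), of ribosome assembly. All 12 overlapped between LN and HN.

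These 12 were the highest values among 10861 genes over only 8 fetuses. An r above 0.9 was reached by 0.249% of all genes with BDH1, 0.193% with BDH2, 0.12% with ACAT1 and 1% with OXCT1, and the median r over all genes lay between -0.0133 and 0.0284. With the probes of each gene averaged, RPL37A had an r of -0.495 with ACAT1, KCTD7 of 0.355 with BDH2, WIPI1 of 0.851 with BDH1, and C1QL2, HGF and UTP14A of 0.67, 0.57 and 0.574 with OXCT1. RPL37A had 0.721 and SPINK1 0.846 with scaling to the 75th percentile, and C1QL2 had 0.72 with normexp.

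HBM read 11.72 in L5, 7.65 in L6, 6.64 in L8 and 7.22 in L9 of LN, and 4.74 in L1, 6.73 in L2, 7.96 in L3 and 6.49 in L10 of HN. HBM belongs to the erythroid markers, and the fetal liver is a site of red cell formation. Of 10 such markers 6 were detected, and SLC4A1, EPB42, KLF1 and HEMGN were not. Their mean log2 signal was 5.181 to 8.756 in LN, where L5 stood apart at the top, and 4.478 to 5.697 in HN. All 6 were higher in LN with a median difference of 1.27 (0.392 without L5). The median was 0.69 with normexp background correction and 1.53 without a filter on dim probes. None passed the adjusted p in limma (lowest 0.785). In tissue RNA, more erythroid cells and more erythroid RNA per cell cannot be told apart.

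BDH2 moved with the mean of these markers from fetus to fetus. After subtraction of the group means, Pearson's r over the 8 fetuses was 0.891 (exact permutation within groups, two-sided, p = 0.0139) and Spearman's rho 0.833 (p = 0.026, same exact test). Without L5 and L8, the fetuses farthest from the median of the marker mean, r was 0.972. The other BDH2 probe gave an r of 0.75, and 0.922 without L5 and L8. Of the 6 markers, 5 had a positive r with BDH2, from 0.737 for GATA1 to 0.939 for HBM, and TFRC, the transferrin receptor, had -0.353. This relation had the lowest p of 56 tested, of 4 members with 14 gene lists, and did not pass adjustment over them (Benjamini-Hochberg adjusted p = 0.525 for r and 0.582 for rho, exact permutation). Whether erythroid RNA takes part in the BDH2 signal was not tested. At the level of the groups they went opposite ways, the erythroid markers higher and BDH2 lower in LN.

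**Figure D4:**
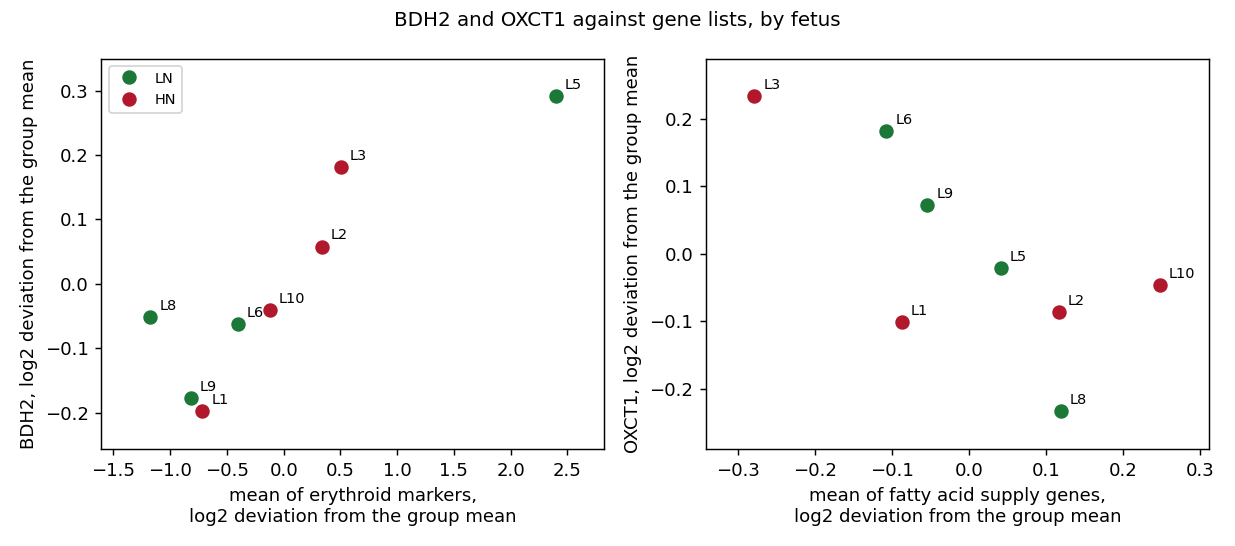
Deviations from the group mean of log2 signals, for BDH2 against the mean of 6 erythroid markers (left) and for OXCT1 against the mean of 14 fatty acid supply genes (right), 1 point per fetus. BDH2 follows the markers with r = 0.891 and L5 at the upper end, and OXCT1 runs against the fatty acid genes with r = -0.726.

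By Pearson's r, 4 other relations had an unadjusted p under 0.05, and all 4 had an adjusted p of 0.525. OXCT1 had an r of -0.726 with the fatty acid supply genes (exact permutation p = 0.033, rho = -0.667 with p = 0.111, and r = -0.714 without L3 and L10), from -0.851 for HADHA to 0.06 for ACADM. It had an r of -0.804 with the succinyl-CoA genes (exact permutation p = 0.0434, rho = -0.762 with p = 0.0538, and r = -0.683 without L2 and L8), from -0.924 for SDHB to 0.872 for SUCLG2. With the hepatocyte markers its r was -0.798 (exact permutation p = 0.0469, rho = -0.667 with p = 0.113, and r = -0.872 without L10 and L3), and single markers ran from -0.915 for fibrinogen (FGB) to 0.478 for AHSG, with a median of 0.162 over the 7. The other OXCT1 probe gave -0.379, -0.155 and -0.736 with the same lists, so the relations with the pathway lists were weaker on it. BDH1 had an r of -0.769 with the regulators of ketogenesis (exact permutation p = 0.0365, rho = -0.643 with p = 0.0938, and r = -0.91 without L5 and L9), from -0.756 for PPARGC1A to 0.344 for CREB3L3. By Spearman's rho, BDH2 with the same regulators (rho = -0.786, exact permutation p = 0.0295) and OXCT1 with the bile duct markers (rho = -0.762, exact permutation p = 0.0312) were also under 0.05, both with an adjusted p of 0.582. Their Pearson's r was -0.764 (exact permutation p = 0.0573, and r = -0.377 without L5 and L9) and -0.648 (exact permutation p = 0.0938, and r = -0.409 without L9 and L3). The other probes gave an r of -0.63 and a rho of -0.5 for BDH2, and for OXCT1 the opposite sign, with an r of 0.218 and a rho of 0.381.

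The neighbouring steps of the pathway were read from lists of genes. Of 57 listed genes 48 had a matched probe, and the rest were not analysed here. All 48 were detected, 19 higher and 29 lower in LN, with a median difference of -0.0801, and none passed the adjusted p in limma in either direction (lowest 0.76, with 3 at an unadjusted p under 0.05). Without overlap between the groups were 1 gene of the 48 on the higher side and 1 on the lower, beside 2.59% and 1.56% of all genes, which is about what that background gives. ETFA, the alpha subunit of the flavoprotein that takes electrons from the acyl-CoA dehydrogenases, read 10.54 to 10.69 in LN and 10.20 to 10.39 in HN (difference 0.285, SE 0.105, limma adjusted p = 0.76). HADH, the short-chain hydroxyacyl-CoA dehydrogenase of beta-oxidation, read 11.38 to 11.53 in LN and 11.62 to 11.98 in HN (difference -0.272, SE 0.121, limma adjusted p = 0.785).

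The fatty acid supply list, which holds the carnitine shuttle and mitochondrial beta-oxidation, had 3 genes higher and 11 lower of 14 with a matched probe, with a median of -0.159 (-0.0449 without HN fetus L10). CPT1A of the carnitine shuttle had no matched probe and was not measured here. The acetoacetyl-CoA list, with the other enzymes that make or spend this intermediate, had 1 higher and 5 lower of 6, with a median of -0.166 (0.0708 without HN fetus L10). The regulators of ketogenesis had 1 higher and 4 lower of 5, the other listed regulators having no matched probe, with a median of -0.0923 (-0.0112 without LN fetus L5). The ketone transport list, the monocarboxylate transporters with their chaperone BSG, had 4 higher and 1 lower of 5 and a median of 0.0992 (-0.0032 without LN fetus L9 and 0.298 without L5). Branched-chain amino acid breakdown, whose leucine branch yields acetoacetate, had 6 higher and 4 lower of 10 (median 0.0449), and the succinyl-CoA list, which holds the donor of the OXCT1 step, had 4 of each of 8 (median 0.00892). Without HN fetus L3 these last medians were -0.0513 and -0.0672, so 4 of the 6 lists turned sign with 1 fetus left out.

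By size, 2 of the 48 were above 0.322 on the higher side and 5 on the lower, beside 7.82% and 8.63% of all genes, so these counts lay near the background. These 7 were named after their values were seen. The higher ones were SLC16A7, a monocarboxylate transporter (0.662), and CS, citrate synthase, which draws acetyl-CoA into the citric acid cycle (0.507). The lower ones were ACADVL (-0.352), ACAA1 (-0.378), HMGCS1 (-0.343), the cytosolic synthase of the cholesterol pathway, PPARGC1A (-0.4), the coactivator of fasting programmes, and CREB3L3 (-0.369). All 7 overlapped between LN and HN.

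**Figure D5:**
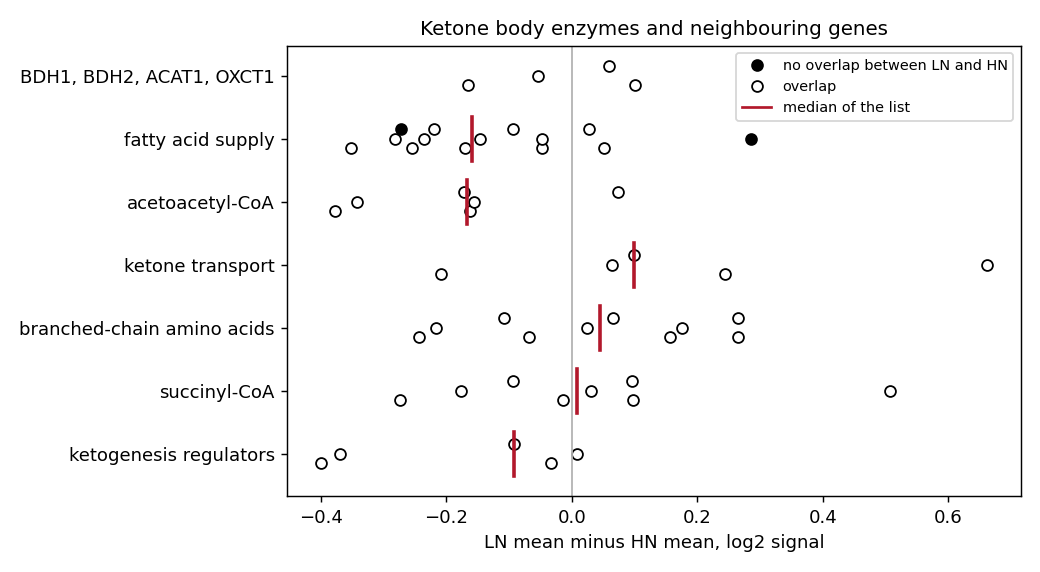
LN mean minus HN mean of the log2 signal (horizontal axis) of the 4 members and of each detected gene of the 6 neighbouring lists, with filled points for genes whose LN and HN fetuses do not overlap and a vertical bar for the median of each list. The members lie between -0.17 and 0.10, and the filled points are ETFA (0.285) and HADH (-0.272).

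The other cell type markers were set beside these values. Neutrophil markers were 8 of 9 higher in LN, with a median of 0.908 and a mean log2 signal of 9.564 to 10.83 in LN and 8.635 to 9.79 in HN. CATHL4 (1.78) and CATHL2 (1.33) differed most. Without overlap between LN and HN were 3 of the 9, all higher in LN, beside 2.59% of all genes: CATHL4, and, named after their values were seen, MPO (1.32) and ELANE (0.908). Lymphocyte markers were lower in 6 of 6, with a median of -0.318 (-0.194 without LN fetus L8). The medians of the endothelial, macrophage, stellate cell, bile duct and hepatocyte lists were 0.0877, -0.104, -0.1, 0.0064 and 0.00665. With 1 fetus left out they ran from 0.0115 (without LN fetus L6) to 0.186 (HN fetus L3), from -0.281 (HN fetus L2) to -0.0238 (HN fetus L1), from -0.241 (HN fetus L3) to 0.0904 (HN fetus L2), from -0.051 (LN fetus L6) to 0.226 (LN fetus L9) and from 0.00179 (LN fetus L8) to 0.0272 (HN fetus L10). The hepatocyte median turned sign with averaged probes (-0.023) and with normexp (-0.00281). No marker passed the adjusted p in limma. The part of blood cell RNA in the differences of the 4 enzymes was not tested.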

How the data were processed

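Total RNA of 8 fetal livers, 1 array each, was labelled with Cy3 and hybridised to Agilent bovine gene expression arrays. The deposited scanner files hold each spot's processed intensity, background-subtracted by Agilent Feature Extraction 11.0.1.1 per the labels, not yet normalized across arrays. A log2 table of 31068 probes, deposited by the authors as well, was quantile normalized in GeneSpring GX per the methods and was used as an alternative.

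Control spots and outlier flags were left out, spots of a probe averaged, log2 intensities quantile normalized over 43637 probes and fitted with limma 3.58.1 (R 4.3.3), LN against HN, without covariates. Genes were named by accession through a RefSeq table of another genome build than the array's (26743 probes matched), so coordinates are left out. Each gene's brightest detected probe, by mean over the arrays, stood for it. Intervals are 95% intervals of the limma fit. The number of arrays limits the precision. Each array was read as 1 fetus, so the spread holds differences between animals and differences of measurement, which 1 array each cannot tell apart.

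The members and the gene lists were chosen with earlier results of these data known. Genes were named by rule: the members, the 3 most alike genes of each, pathway genes past the adjusted p or up to 3 a direction without overlap, and up to 2 markers a list with the largest difference. Alternatives were the 75th percentile scaling, normexp background correction (offset 50), the log2 table, both filters on dim probes, averaged probes, array position as a block, and each fetus left out. The second probe of a gene, the marker list medians and the background without L5 were added after the data were seen, and genes named as extremes of a list were likewise picked from their values. The 56 relations of members with gene lists were not among the planned results either. Their p-values came from exact permutation of the fetuses within groups (576 permutations) and are not those of planned tests. The fit was tested on simulated data with changes far larger than the differences of the members, so that test does not cover changes of their size.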

Additional observations from a re-analysis of the deposited data

Results flagged for a closer look

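On the main OXCT1 probe, HN fetus L3 (7.977) lay far from the other HN fetuses: its gap to the nearest was 0.835 of the range of the group. It was the only value flagged among 14 groups of 4 looked at, the 7 member probes in LN and HN, and chance gives about 1 in 20 groups. LN fetus L6 on the other OXCT1 probe came close to a flag, at 7.45 with the next LN value at 6.98, so L3 was not alone in standing apart. On the other OXCT1 probe L3 lay within the HN range, at 6.93.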

How the results depend on the processing

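The differences of the 4 members moved by less than the SD within groups under all alternatives run. Without 1 fetus, BDH1 ran from -0.43 to 0.27, ACAT1 from -0.03 to 0.12, BDH2 from -0.26 to -0.11 and OXCT1 from 0.04 to 0.18. The other settings gave -0.26 to -0.01, 0.03 to 0.06, -0.17 to -0.13 and 0.05 to 0.17 in the same order. Over all genes, 75th percentile scaling gave 282 genes without overlap on the lower side and 1433 lower by over 0.322 on the log2 scale (612 higher), and normexp gave 411 higher and 495 lower by that size. Leaving out 1 fetus, which leaves fewer values to overlap, gave 351 to 625 genes higher and 252 to 395 lower without overlap, and 0 to 1 probes at the adjusted p (1 without L6 of LN). The list medians ran, without 1 fetus, from -0.277 to -0.0449 for fatty acid supply, -0.348 to 0.0708 for acetoacetyl-CoA, -0.0032 to 0.298 for ketone transport, -0.0513 to 0.0993 for branched-chain amino acids, -0.0672 to 0.0622 for succinyl-CoA and -0.216 to -0.0112 for the regulators. Under the other settings the medians ran from -0.173 to -0.15 for fatty acid supply, -0.177 to -0.147 for acetoacetyl-CoA and 0.0287 to 0.0995 for ketone transport. They ran from 0.0129 to 0.0453 for branched-chain amino acids and -0.174 to -0.0611 for the regulators. The succinyl-CoA median turned sign, from -0.06 with averaged probes to 0.0136. LN and HN share no replicate numbers, so no fit was paired by them. Array position as a block gave 0 probes at the adjusted p. With 4 fetuses a group, the intervals above set what could be seen.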
